A study of Mus musculus with 92 samples.

Results

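The KMT2 and SETD1 genes encode the enzymes that methylate lysine 4 of histone H3 and the core proteins those enzymes share. The 10 genes described here were chosen by name, as Kmt2a, Kmt2b, Kmt2c, Kmt2d, Kmt2e, Setd1a, Setd1b, Ash2l, Wdr5 and Rbbp5, out of 54532 genes in the count tables. All 10 were tested in every comparison. They were measured by poly(A)-selected RNA sequencing in 92 libraries of mouse small intestine and of intestinal cultures, most of which carry floxed alleles of Eif4g2, a translation initiation factor related to eIF4G. All mice and cultures carried a tamoxifen-inducible Cre.

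In the Rosa26 tissue set, Eif4g2(flox/flox), Rosa26(CreER) mice and their Eif4g2(flox/+), Rosa26(CreER) controls were given tamoxifen at 100 mg/kg on 4 days in a row and sampled on day 9, giving 4 and 5 crypt libraries and 5 and 5 villus libraries. The Vil1 set held Eif4g2(flox/flox), Vil1(CreER) and Eif4g2(flox/+), Vil1(CreER) mice at 3 months after the same injections, with 3 and 4 crypt libraries and 6 and 4 villus libraries. Rosa26 drives Cre in most cell types and Vil1 in gut epithelium, and the tissue controls had received tamoxifen too and carry 1 floxed allele. The ages of the mice are not given in the sources used here. Among the organoids, the first set compared Eif4g2(flox/flox), Rosa26(CreER) cultures after 4-hydroxytamoxifen (4-OHT, 0.5 µM for 24 h) or its solvent DMSO, with 3 libraries each. The second set gave 4-OHT to flox/flox, flox/+ and Eif4g2(+/+) cultures that all carried Rosa26(CreER), with 4 libraries each, so the Eif4g2(+/+) cultures had active Cre without a floxed allele. Fetal intestinal spheroids came from 6 flox/flox and 5 flox/+ lines with Rosa26(CreER), each given DMSO and 4-OHT, and these organoids and spheroids were collected on day 6. The titles of all libraries of both organoid sets and of the spheroids carry ENR, the name of a culture medium. In a separate experiment 4 organoid lines, none given 4-OHT, received DMSO or the CBP and p300 acetyltransferase inhibitor A-485 at 3, 5 or 10 µM for 4 days. Replicate 1 of that experiment was Eif4g2(+/+) and replicates 2 to 4 were Eif4g2(flox/flox).

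Methylation of lysine 4 on histone H3 marks active regulatory DNA, and in mammals it is written by a family of SET domain enzymes that are nearly inactive alone. KMT2A and KMT2B act at selected promoters, KMT2C and KMT2D place the monomethyl mark at enhancers, and SETD1A and SETD1B place much of the trimethyl mark at promoters. WDR5, RBBP5 and ASH2L, with DPY30, form the core that every active complex of the family contains. KMT2E is a relative without known methyltransferase activity. In the small intestine, stem and progenitor cells divide in the crypts and their daughters differentiate as they move onto the villi.

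Each library held between 8652040 and 37611126 counted reads. Eif4g2 itself followed the labels: its mean level fell from 451.9 to 115 CPM (counts scaled to library depth) in Rosa26 crypts, from 448.6 to 70.9 CPM in Rosa26 villi, from 621.8 to 120.5 CPM in the first organoid set and from 783.6 to 110.5 CPM in the flox/flox spheroids. More of it was left in the Vil1 tissues, where flox/flox crypts averaged 298.6 CPM against 576.7 CPM and villi 178.5 CPM against 458 CPM. Summed crypt stem and progenitor markers were far lower after deletion, at 271 to 1110 CPM in flox/flox Rosa26 crypts against 4980 to 8270 CPM in controls and at 1300 to 2040 CPM in flox/flox organoids of the second set against 5150 to 6500 CPM in Eif4g2(+/+) organoids. In bulk samples such as these, a smaller share of a cell type and less RNA per cell cannot be told apart. The spheroid line of flox/flox replicate 6 stood apart from the other lines, and the spheroid calls are given with and without it. The library names give each replicate its own animal or line, except that the Eif4g2(+/+) organoids of the second set carry letters, for which nothing says that they were separate lines. A single flox/flox line was used both in the first organoid set (replicate 1) and with A-485 (replicate 2).

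Per kilobase of gene length, Wdr5 was the most abundant of the 10 transcripts in 17 of 21 groups, Kmt2b in 3 and Rbbp5 in 1. Setd1a was the least abundant in 9 groups, Kmt2c in 8, Setd1b in 3 and Kmt2a in 1. In Eif4g2(+/+) organoids, for example, Wdr5 averaged 20.9 CPM per kilobase, Ash2l 13.3 and Setd1b 3.12. The order differed in control villi of the Rosa26 set, where Kmt2b averaged 8.92 CPM per kilobase, Wdr5 7.72 and Setd1a 2.20. Levels of different genes are compared only on this scale, and all further levels are CPM.

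The genes also differed in how far their levels ranged across the 21 groups. Kmt2d (chr15:98831669-98871204, minus strand) ranged most, from 44.2 ± 18.8 CPM (SD, n = 6) in DMSO-treated flox/flox spheroids to 233.6 ± 19.2 CPM (SD, n = 6) in flox/flox Vil1 villi, a ratio of 5.28. Rbbp5 (chr1:132477365-132505659, plus strand) ranged least, with a ratio of 1.62. The enzyme genes Kmt2a (chr9:44803355-44881296, minus strand), Kmt2b (chr7:30568858-30588726, minus strand) and Kmt2c (chr5:25271798-25498783, minus strand) were each highest in a Vil1 tissue group. Kmt2a reached 103 ± 22.3 CPM (SD, n = 4) in control Vil1 crypts, while Kmt2b reached 138.3 ± 7.64 CPM (SD, n = 6) in flox/flox Vil1 villi. Setd1a (chr7:127776670-127800122, plus strand) was highest in 4-OHT-treated organoids of the first set, at 42.4 ± 4.198 CPM (SD, n = 3). The core gene Wdr5 (chr2:27515157-27536535, plus strand) had its lowest mean in control Rosa26 villi, 27.8 ± 3.71 CPM (SD, n = 5), and its highest in flox/flox organoids of the second set, 89.6 ± 3.68 CPM (SD, n = 4). Ash2l (chr8:25815996-25847694, minus strand), the other core gene with a wide range, was highest in Eif4g2(+/+) organoids, at 119.2 ± 9.84 CPM (SD, n = 4). Kmt2e (chr5:23434441-23504235, plus strand) and Setd1b (chr5:123142193-123168629, plus strand) complete the set. Positions are those in the count tables, on GRCm38.

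Exon overlap could blur some of these counts, because no source used here gives the counting program or says whether reads were counted by strand. In GENCODE vM21, 972 exonic bases of Kmt2e (9.31%) lie opposite exons of Srpk2, which had 37 to 1652 reads per library. Setd1a shares 3523 exonic bases (51.8%) with Gm49388 on the same strand, and Gm49388 had at most 2 reads in a library. How reads in those shared bases were assigned or discarded is not given. The low level and rank of Setd1a per kilobase could depend on it. Kmt2a and Kmt2c overlap small genes on the opposite strand over 2.27% and 1.35% of their exonic bases.

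RefSeq promoter windows on GRCm38.p6 were found for 6 of the 10 genes, Kmt2a, Kmt2c, Kmt2d, Setd1a, Wdr5 and Rbbp5. The 250 bases before the start are printed for the 4 of them with the largest called differences between crypt and villus in both Cre mouse lines, 3 higher in crypts and Kmt2d higher in villi. Each runs 5′ to 3′ on the gene's strand, with GGGCGG, the core of the Sp1 site, in capitals where it occurs on either strand. The windows are chr9:44881290-44881539 (minus strand) for Kmt2a, chr7:127777139-127777388 (plus strand) for Setd1a, chr2:27514897-27515146 (plus strand) for Wdr5 and chr15:98871206-98871455 (minus strand) for Kmt2d.
Kmt2a: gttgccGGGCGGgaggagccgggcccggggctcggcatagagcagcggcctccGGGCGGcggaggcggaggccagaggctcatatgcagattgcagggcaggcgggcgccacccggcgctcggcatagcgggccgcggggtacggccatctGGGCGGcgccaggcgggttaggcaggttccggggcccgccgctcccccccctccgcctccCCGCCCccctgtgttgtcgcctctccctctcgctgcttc
Setd1a: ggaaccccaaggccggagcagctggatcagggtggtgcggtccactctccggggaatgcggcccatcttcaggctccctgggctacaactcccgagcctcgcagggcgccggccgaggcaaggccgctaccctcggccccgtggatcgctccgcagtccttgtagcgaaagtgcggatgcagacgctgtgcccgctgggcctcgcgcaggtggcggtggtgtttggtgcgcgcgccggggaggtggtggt
Wdr5: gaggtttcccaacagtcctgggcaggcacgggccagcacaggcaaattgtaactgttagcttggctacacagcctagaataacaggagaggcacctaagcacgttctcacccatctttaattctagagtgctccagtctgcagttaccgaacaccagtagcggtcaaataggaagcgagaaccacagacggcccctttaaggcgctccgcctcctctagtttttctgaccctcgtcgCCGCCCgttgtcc
Kmt2d: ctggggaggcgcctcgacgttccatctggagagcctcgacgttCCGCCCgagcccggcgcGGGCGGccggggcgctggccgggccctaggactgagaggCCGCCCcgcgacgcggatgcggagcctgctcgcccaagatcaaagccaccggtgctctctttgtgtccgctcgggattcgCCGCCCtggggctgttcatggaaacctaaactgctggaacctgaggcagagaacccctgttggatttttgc
The RefSeq start of Setd1a lies inside the gene's span in the count tables. GGGCGG occurred 4 times in the Kmt2a window, 4 times in the Kmt2d window, once in the Wdr5 window and nowhere in the Setd1a window, against 32.7% of 32851 promoters that held it at least once. The windows were CpG-rich, with 29 CpG dinucleotides for Kmt2a, 26 for Kmt2d, 25 for Setd1a and 12 for Wdr5, beside a median of 6 over all promoters. Searched on both strands as exact letters, the ETS core CCGGAAG (6.91% of promoters), the NRF1 palindrome (0.782%), CCAAT (33.8%), TATAAA (12.4%) and the YY1 site AAGATGGC (1.56%) were found in none of the 6 windows.

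Across the deletion comparisons, Kmt2b, Kmt2d and Setd1a were higher and Ash2l lower wherever they passed the test. Calls are those with an adjusted p below 0.05 in edgeR's quasi-likelihood test, adjusted over every tested gene, and fold changes are on the log2 scale with their standard error (SE). The tallies below cover 8 comparisons of flox/flox samples with Cre activity against controls, of which the pair in the second organoid set shares its flox/flox libraries. Flox/flox against flox/+ spheroids after 4-OHT is a further comparison of this kind and is left out of the tallies. No member was called in it (background 10.5%), while DESeq2 called 2. In the first organoid set and the flox/flox spheroids the controls received DMSO and no 4-OHT. Within those comparisons 4-OHT exposure, Cre activity and loss of Eif4g2 cannot be told apart. Crypts and villi of each mouse line came largely from the same animals, so the tallies below count most animals more than once. Kmt2b, Kmt2d and Setd1a were each called higher in 4 of the 8 and had a positive fold change in the other 4. Ash2l was called lower in 5 and had a negative fold change in the other 3. Wdr5 was called higher in 3 and was positive in all 8, while Kmt2c and Rbbp5 were called in none. How many other genes kept a single direction or were called as often over these comparisons was not tested.

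**Figure D1:**
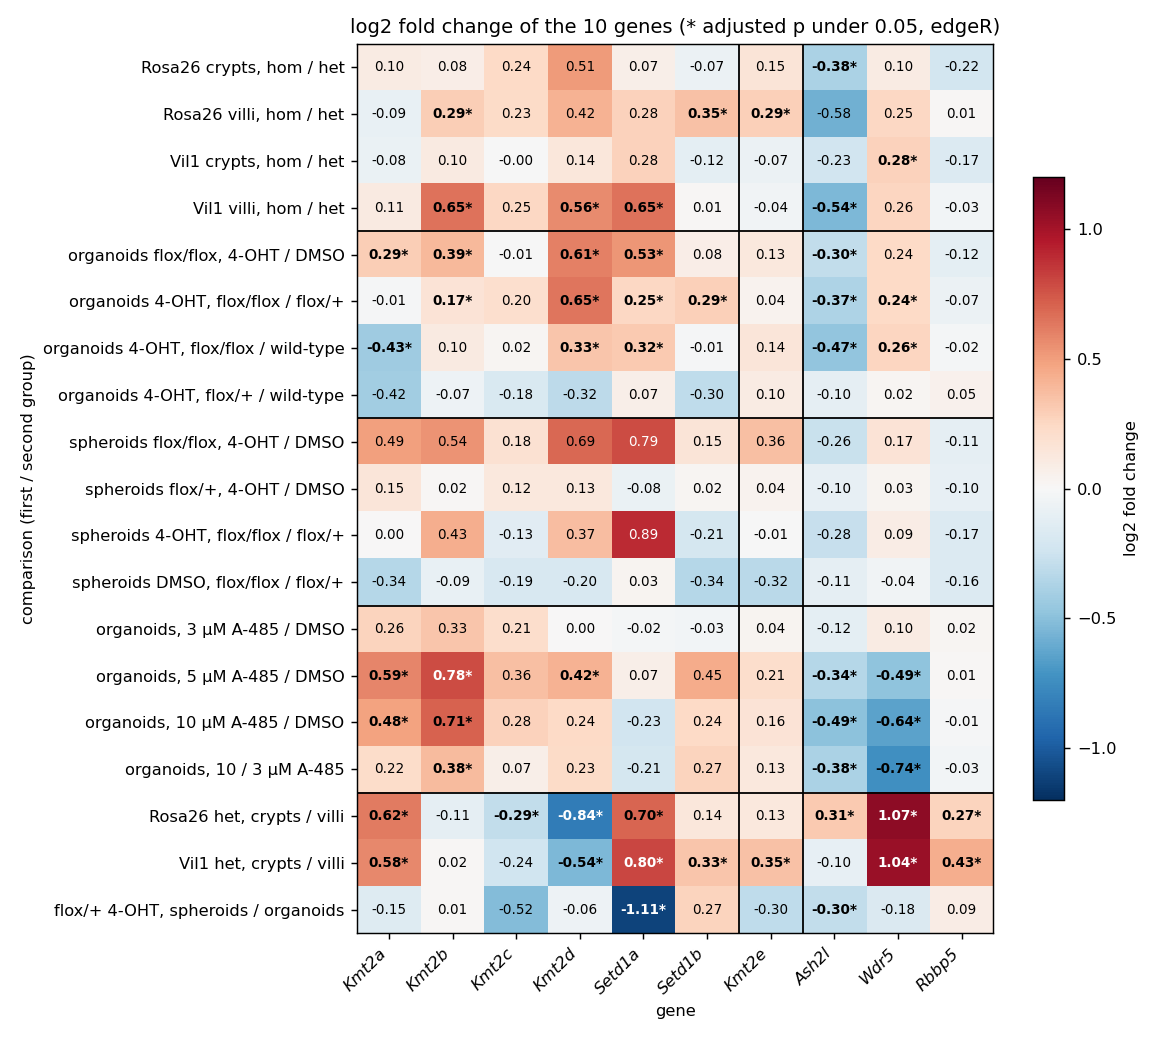
Log2 fold changes of the 10 genes (horizontal axis) in the 19 comparisons (vertical axis, first group over second), coloured from lower in blue to higher in red, with an asterisk where the adjusted p of edgeR's test was under 0.05. The Ash2l cells are negative and the Kmt2b, Kmt2d and Setd1a cells positive in all 8 deletion comparisons, and Kmt2c was called in 1 of the 19.

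Set against all tested genes, these counts were modest. Of the 10 members, 1 was called in Rosa26 crypts (background 20.2% of tested genes called), 3 in Rosa26 villi (33.2%), 1 in Vil1 crypts (29.3%) and 4 in Vil1 villi (42.5%). In organoids, 5 were called after 4-OHT in the first set (35.4%), 6 for flox/flox against flox/+ in the second set (46.8%) and 5 for flox/flox against Eif4g2(+/+) (45.3%). The members' share was therefore near or below the background in the tissues and near or slightly above it in organoids. With 10 members, these differences from the background amount to few genes. Their median fold change was 0.27 in Rosa26 villi, 0.18 in Vil1 villi and 0.18 in the first organoid set, beside medians of −0.01, 0.05 and 0.03 over all tested genes. It was 0.09 in Rosa26 crypts and −0.04 in Vil1 crypts, beside 0.04 and 0.01. In the second organoid set it was 0.18 against flox/+ and 0.06 against Eif4g2(+/+), beside −0.01 and 0.00.

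Most of the enzyme genes have long transcripts, and long genes as a class moved with them. Over the tested genes of at least 10000 bases, 1157 to 1289 in each of these comparisons, the median fold change was 0.16 in the first organoid set, 0.11 for flox/flox against flox/+ organoids, 0.07 in Vil1 villi and 0.06 in Rosa26 villi. It was 0.10 in Rosa26 crypts and 0.00 in Vil1 crypts. With each library's trend along gene length taken out as an offset, an alternative to the fits reported here, 15 of all 54 member calls were lost and none changed direction. The part of transcript length in these results beyond that was not tested.

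Kmt2d, the enhancer methyltransferase, was the enzyme gene with the largest rise in organoids. In the first set its level was 74.0, 81.3 and 80.3 CPM with DMSO and 112, 130 and 117 CPM with 4-OHT. All treated libraries were above all DMSO libraries. The rise was 0.61 on the log2 scale (SE 0.09, edgeR adjusted p = 0.00261), and 0.38 (adjusted p = 0.0156) with the length offset. In the second set flox/flox organoids held 94.5, 84.1, 80.5 and 98.2 CPM of Kmt2d, flox/+ organoids 68.5, 57.5, 48.5 and 54.0 CPM, and Eif4g2(+/+) organoids 67.0, 69.0, 78.2 and 69.9 CPM. Every flox/flox library again lay above both control groups. The difference was 0.65 (SE 0.10, edgeR adjusted p = 0.000167) against flox/+ and 0.33 (SE 0.10, edgeR adjusted p = 0.0174) against Eif4g2(+/+). Leaving out either of 2 libraries ended the latter call, with an adjusted p of up to 0.0532.

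In villi of the Vil1 mice, Kmt2d read 124, 154, 199 and 150 CPM in controls, and from 210.4 through a median of 232.7 to 259 CPM in the 6 flox/flox libraries. The groups did not overlap, and the rise was 0.56 (SE 0.13, edgeR adjusted p = 0.00404). Rosa26 villi held 104, 138, 191, 180 and 193 CPM in controls and 178, 208, 260, 260 and 209 CPM in flox/flox mice. Here the groups overlapped and the value of 0.42 did not pass the test (edgeR adjusted p = 0.0985). Rosa26 crypts gave 122.5, 110, 68.7, 73.1 and 74.5 CPM in controls and 166, 97.1, 126, 122 CPM in flox/flox mice, with a value of 0.51 and an edgeR adjusted p of 0.126. The animal numbers in the library names fall into an early and a late series, whose meaning is not given, and the 2 highest control crypts came from the early series. With the series as a covariate, a choice made after seeing the data, Kmt2d passed the test in crypts (0.63, adjusted p = 0.00271) and in villi (0.45, adjusted p = 0.0158). In the late-numbered animals alone, also chosen after seeing the data, it passed in crypts (0.73, adjusted p = 0.0282) and not in villi (0.32, adjusted p = 0.146). Among the late-numbered animals the Y-linked gene Ddx3y was above 1 CPM in every control library and in no flox/flox library. Sex and genotype therefore cannot be told apart in any flox/flox against control value from those animals, here or below.

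Kmt2b, the promoter-acting relative of Kmt2a, rose in villi of both mouse lines. Control Vil1 villi held 73.1, 82.9, 98.7 and 94.95 CPM and the 6 flox/flox libraries 124.7 to 144.8 CPM, with a median of 140.6. The groups were clearly separate, with a rise of 0.65 (SE 0.11, edgeR adjusted p = 0.000477). The Rosa26 villi read 79.5, 80.2, 83.7, 97.6 and 86.8 CPM in controls and 101, 103, 114, 108 and 112 CPM in flox/flox mice. These groups did not overlap either, although the rise was smaller at 0.29 (SE 0.09, edgeR adjusted p = 0.0225) and was lost on leaving out control replicate 2 (adjusted p = 0.053). In the first organoid set Kmt2b went from 88.1, 92.4 and 100.2 CPM to 126, 122 and 120.2 CPM, with no overlap and a rise of 0.39 (SE 0.08, edgeR adjusted p = 0.00841), which the length offset ended (0.25, adjusted p = 0.0515). In the second set the flox/flox libraries held 68.0, 63.2, 63.4 and 69.7 CPM against 61.5, 59.8, 56.3 and 57.8 CPM in flox/+ organoids. That rise of 0.17 (SE 0.06, edgeR adjusted p = 0.0208) was lost on leaving out any of 4 of the 8 libraries, with an adjusted p of up to 0.0684, and with the length offset (0.08, adjusted p = 0.23).

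Setd1a, which encodes an enzyme of the promoter trimethyl mark and was among the least abundant members per kilobase, showed the same direction. In Vil1 villi it read 12.9, 15.0, 15.2 and 17.1 CPM in controls and 16.5 to 28.7 CPM, with a median of 24.35, in flox/flox libraries. A single flox/flox library, at 16.5 CPM, fell within the control range. The rise was 0.65 (SE 0.16, edgeR adjusted p = 0.0065). In the first organoid set Setd1a went from 29.5, 27.0 and 31.7 CPM to 41.1, 38.9 and 47.1 CPM, without overlap (0.53, SE 0.10, edgeR adjusted p = 0.00783). Flox/flox organoids of the second set held 39.1, 38.1, 31.5 and 39.3 CPM, flox/+ organoids 30.7, 28.9, 32.7 and 32.4 CPM and Eif4g2(+/+) organoids 29.3, 30.3, 29.8 and 29.7 CPM. The flox/flox libraries lay above all Eif4g2(+/+) libraries (0.32, SE 0.08, edgeR adjusted p = 0.00367), while 1 of them fell within the flox/+ range (0.25, SE 0.08, edgeR adjusted p = 0.0152). Leaving out 1 of the 8 libraries ended the call against flox/+, at an adjusted p of 0.0537.

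The other enzyme genes were called less widely. Kmt2a, the mouse MLL1 gene, rose in the first organoid set from 46.3, 52.4 and 44.9 CPM to 57.1, 60.6 and 58.9 CPM. Those groups did not overlap, but the rise of 0.29 (SE 0.09, edgeR adjusted p = 0.0372) was lost on leaving out any of 4 of the 6 libraries, with an adjusted p of up to 0.138, and was 0.09 with the length offset. In the second set Kmt2a was lower, not higher, in flox/flox organoids, at 59.4, 54.1, 46.2 and 53.5 CPM against 66.3, 74.6, 77.8 and 68.3 CPM in Eif4g2(+/+) organoids (−0.43, SE 0.09, edgeR adjusted p = 0.00132). The flox/+ organoids, at 57.2, 54.0, 46.1 and 57.8 CPM, lay in the flox/flox range and below every Eif4g2(+/+) library, with a value of −0.42 (edgeR adjusted p = 0.107). Setd1b, the close relative of Setd1a, rose in Rosa26 villi from 65.8 to 92.2 CPM in 5 controls to 89.6 to 121 CPM in 5 flox/flox libraries (0.35, SE 0.12, edgeR adjusted p = 0.0427). It also rose in flox/flox against flox/+ organoids, from 28.9 to 33.5 CPM to 31.4 to 44.4 CPM (0.29, SE 0.11, edgeR adjusted p = 0.0367). Both groups overlapped, and the calls were lost on leaving out any of 6 of 10 and 5 of 8 libraries, with adjusted p up to 0.084 and 0.13, and with the length offset (0.29, adjusted p = 0.0508, and 0.18, adjusted p = 0.18). Kmt2e, the relative without known enzyme activity, rose in Rosa26 villi from 69.7, 82.6, 74.9, 75.3 and 81.7 CPM to 80.5, 94.3, 107.7, 100.6 and 98.6 CPM (0.29, SE 0.09, edgeR adjusted p = 0.0306), a call lost without any of 4 of 10 libraries (adjusted p up to 0.0618). In the late-numbered animals alone, chosen after seeing the data, none of the 3 calls in Rosa26 villi was kept (Kmt2b 0.27, Kmt2e 0.36 and Setd1b 0.40, with edgeR adjusted p of 0.144, 0.062 and 0.0925), and Kmt2c was called higher (0.44, edgeR adjusted p = 0.0479).

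Ash2l, which encodes the core protein that joins DPY30 to the complex, fell in every system where it passed. In Rosa26 crypts it read 69.4, 69.2, 65.5, 68.7 and 77.2 CPM in controls and 45.5, 56.8, 52.7 and 60.8 CPM in flox/flox mice. The groups did not overlap and Ash2l fell by 0.38 on the log2 scale (SE 0.09, edgeR adjusted p = 0.0163), the only member called there; the call was lost without flox/flox replicate 4 (adjusted p = 0.0872) and in the late-numbered animals alone (−0.26, adjusted p = 0.167). In Rosa26 villi 4 of the 5 flox/flox libraries held 33.7, 25.2, 30.3 and 27.7 CPM, below every control at 40.2 to 69.6 CPM, and the fifth held 77.5 CPM. With all libraries the value was −0.58 and did not pass (edgeR adjusted p = 0.168), and without flox/flox replicate 5 it was −0.99 (adjusted p = 0.00069). Vil1 villi held 67.5, 89.1, 59.7 and 107.8 CPM in controls and 50.1 to 67.1 CPM, with a median of 52.57, in flox/flox libraries. The groups overlapped, and the fall of 0.54 (SE 0.16, edgeR adjusted p = 0.0166) was lost without control replicate 4 (adjusted p = 0.0828).

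The fall of Ash2l was steadiest in the second organoid set. Its level was 84.1, 84.3, 87.4 and 87.8 CPM in flox/flox organoids, 110.1, 107.6, 112.5 and 113 CPM in flox/+ organoids and 130.5, 123.9, 108.7 and 113.8 CPM in Eif4g2(+/+) organoids. No flox/flox library reached a control, and Ash2l fell by 0.37 (SE 0.05, edgeR adjusted p = 4.72e-05) against flox/+ and by 0.47 (SE 0.05, edgeR adjusted p = 4.77e-06) against Eif4g2(+/+). In the first set it went from 86.6, 83.8 and 83.7 CPM to 69.2, 61.6 and 76.4 CPM, also without overlap (−0.30, SE 0.09, edgeR adjusted p = 0.0392), though leaving out any of 5 of the 6 libraries ended that call, with an adjusted p of up to 0.122.

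Wdr5, which encodes the WD40 protein that binds the enzymes' Win motif, rose where Ash2l fell in the second organoid set. The flox/flox organoids held 93.5, 85.1, 91.6 and 88.3 CPM, the flox/+ organoids 71.7, 73.9, 75.9 and 83.2 CPM and the Eif4g2(+/+) organoids 72.0, 82.1, 69.0 and 77.2 CPM. All flox/flox libraries lay above both control groups, with a rise of 0.24 (SE 0.06, edgeR adjusted p = 0.00454) against flox/+ and 0.26 (SE 0.06, edgeR adjusted p = 0.00273) against Eif4g2(+/+). Wdr5 was also the only member called in Vil1 crypts, where it went from 61.1, 64.3, 55.1 and 62.5 CPM to 74.1, 74.4 and 78.1 CPM. Those groups did not overlap (0.28, SE 0.07, edgeR adjusted p = 0.0188), and the call was lost without flox/flox replicate 3 (adjusted p = 0.0813). Rbbp5, the third protein of the shared core, was not called in any deletion comparison.

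**Figure D2:**
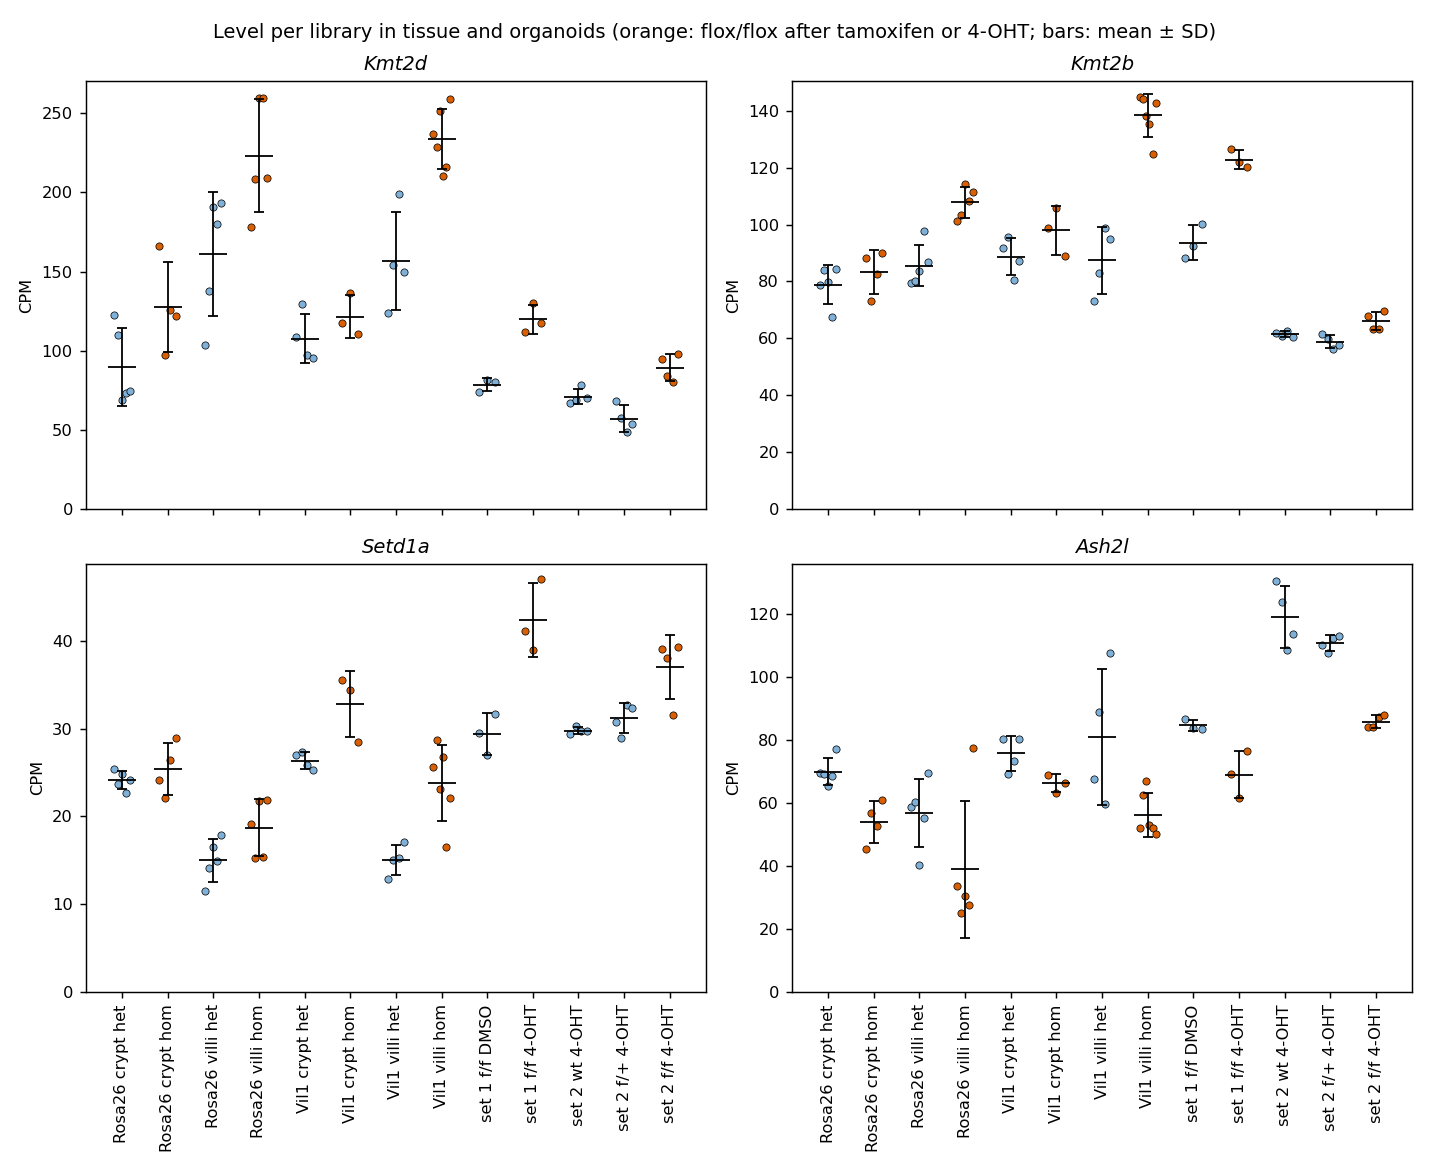
CPM (vertical axis, from 0) of Kmt2d, Kmt2b, Setd1a and Ash2l in each library of the tissue groups and both organoid sets (horizontal axis), with lines at each group's mean ± SD and flox/flox samples after tamoxifen or 4-OHT in orange. Kmt2d in the first organoid set reads 74.0 to 81.3 CPM with DMSO and 112 to 130 CPM with 4-OHT, and Ash2l in the second set reads 84.1 to 87.8 CPM in flox/flox organoids and at least 107.6 CPM in both controls.

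Other measures differed between the same groups. The mitochondrial share of reads was 13.7 to 25.2% in flox/flox and 6.24 to 12.4% in control Rosa26 crypts, and 30.4 to 40.3% against 17.5 to 30.8% in Vil1 crypts. Summed immune markers read 117 to 461 CPM in flox/flox and 712 to 1440 CPM in control Vil1 villi, and 229 to 405 CPM against 544 to 1410 CPM in Rosa26 villi. The Y-linked gene Ddx3y was above 1 CPM in all 5 control villus libraries of the Rosa26 set and in 2 of 5 flox/flox ones, and with Ddx3y status as a covariate none of the 3 calls in Rosa26 villi was kept. The part of mitochondrial share and of immune cells in the members' values was not tested.

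Against Eif4g2(+/+) organoids, flox/+ organoids had no member called (background 0.113%), while DESeq2 called 1. An unadjusted p under 0.05 was reached by 3 members, beside 10.4% of all tested genes. The members' median in this comparison was −0.09 beside 0.00 over all tested genes.

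Fetal spheroids showed the same members moving the same way once each line was compared with itself. In the fit without line, no flox/flox member passed after 4-OHT (background 19.1%), and DESeq2 called 1. An unadjusted p under 0.05 was reached by 3 members, beside 31.5% of all tested genes. The DMSO and 4-OHT libraries of a replicate number come from the same line. With the line as a block, 6 members were called, and 4649 of 13430 tested genes were called in that fit. The members' median fold change without the block was 0.27, beside −0.02 for all tested genes and 0.20 for long genes.

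Setd1a gave the clearest paired pattern, from 11.9, 15.2, 16.7, 14.0, 8.26 and 27.7 CPM in the 6 lines with DMSO to 25.3, 20.9, 22.7, 24.4, 17.2 and 49.5 CPM with 4-OHT in the same order. It was higher in 6 of 6 lines, although the line of replicate 6 with DMSO lay above 5 of the 4-OHT libraries. The difference was 0.79 without the block (edgeR adjusted p = 0.0544) and 0.78 with it (edgeR adjusted p = 0.00195). Kmt2d went from 37.1, 42.9, 45.3, 44.2, 18.9 and 77.0 CPM to 85.0, 50.1, 98.8, 54.2, 31.5 and 103.9 CPM, higher in 6 of 6 lines (0.67 with the block, edgeR adjusted p = 0.0088). Kmt2b went from 37.5, 55.3, 47.6, 54.2, 26.9 and 112 CPM to 75.8, 76.8, 79.0, 59.2, 38.9 and 149.7 CPM, also in 6 of 6 lines (0.55 with the block, edgeR adjusted p = 0.00681). For both genes the lines differed among themselves more than the treatment moved most of them.

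Ash2l was lower with 4-OHT in 6 of 6 flox/flox lines, from 90.4, 97.0, 89.1, 102.9, 87.6 and 73.7 CPM to 68.8, 77.6, 71.0, 70.9, 85.2 and 73.5 CPM (−0.27 with the block, edgeR adjusted p = 0.0349). In the line of replicate 6 the levels were almost equal. With the block Kmt2e (0.35, adjusted p = 0.0178) and Kmt2a (0.57, adjusted p = 0.0427) were called as well, each higher in 5 of 6 lines. When the line of replicate 6 was left out of both groups, an alternative chosen after seeing the data, Setd1a (0.77, adjusted p = 0.00936), Kmt2b (0.58, adjusted p = 0.017), Kmt2d (0.72, adjusted p = 0.0188), Kmt2e (0.36, adjusted p = 0.0407) and Ash2l (−0.32, adjusted p = 0.0309) kept their calls with the block, Kmt2a did not (adjusted p = 0.0755), and Setd1a was called without the block too (0.76, adjusted p = 0.0263).

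In flox/+ spheroids none of the 10 genes was called after 4-OHT (background 0%), and DESeq2 called none. No member had an unadjusted p under 0.05, beside 0.0998% of tested genes, and the members' fold changes ran from −0.10 to 0.15. Setd1a there read 12.01, 17.8, 10.1, 17.0 and 20.6 CPM with DMSO and 13.3, 13.1, 10.6, 14.6 and 21.5 CPM with 4-OHT. The response of Setd1a to 4-OHT differed between flox/flox and flox/+ lines by 0.86 on the log2 scale (edgeR adjusted p = 0.00386) when the line was a block. Without the block no member's difference was called (background 1.62%), and DESeq2 called none. In that fit 0 members had an unadjusted p under 0.05, beside 13.9% of tested genes. Leaving out the line of replicate 6 kept that call of Setd1a with the block (0.84, edgeR adjusted p = 0.0106) and added none without it. Between flox/flox and flox/+ spheroids after 4-OHT no member was called (background 10.5%), and DESeq2 called 2. An unadjusted p under 0.05 was reached by 2 members, beside 25% of tested genes. Setd1a was nearest the threshold (0.89, SE 0.30, edgeR adjusted p = 0.0585). Its value was 0.61 (adjusted p = 0.0913) without the line of replicate 6 and 0.84 (adjusted p = 0.0342) with the length offset. With DMSO none was called (background 0%), and DESeq2 called none. No member had an unadjusted p under 0.05 there, beside 7.21% of tested genes. Without the line of replicate 6 none was called in either comparison.

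**Figure D3:**
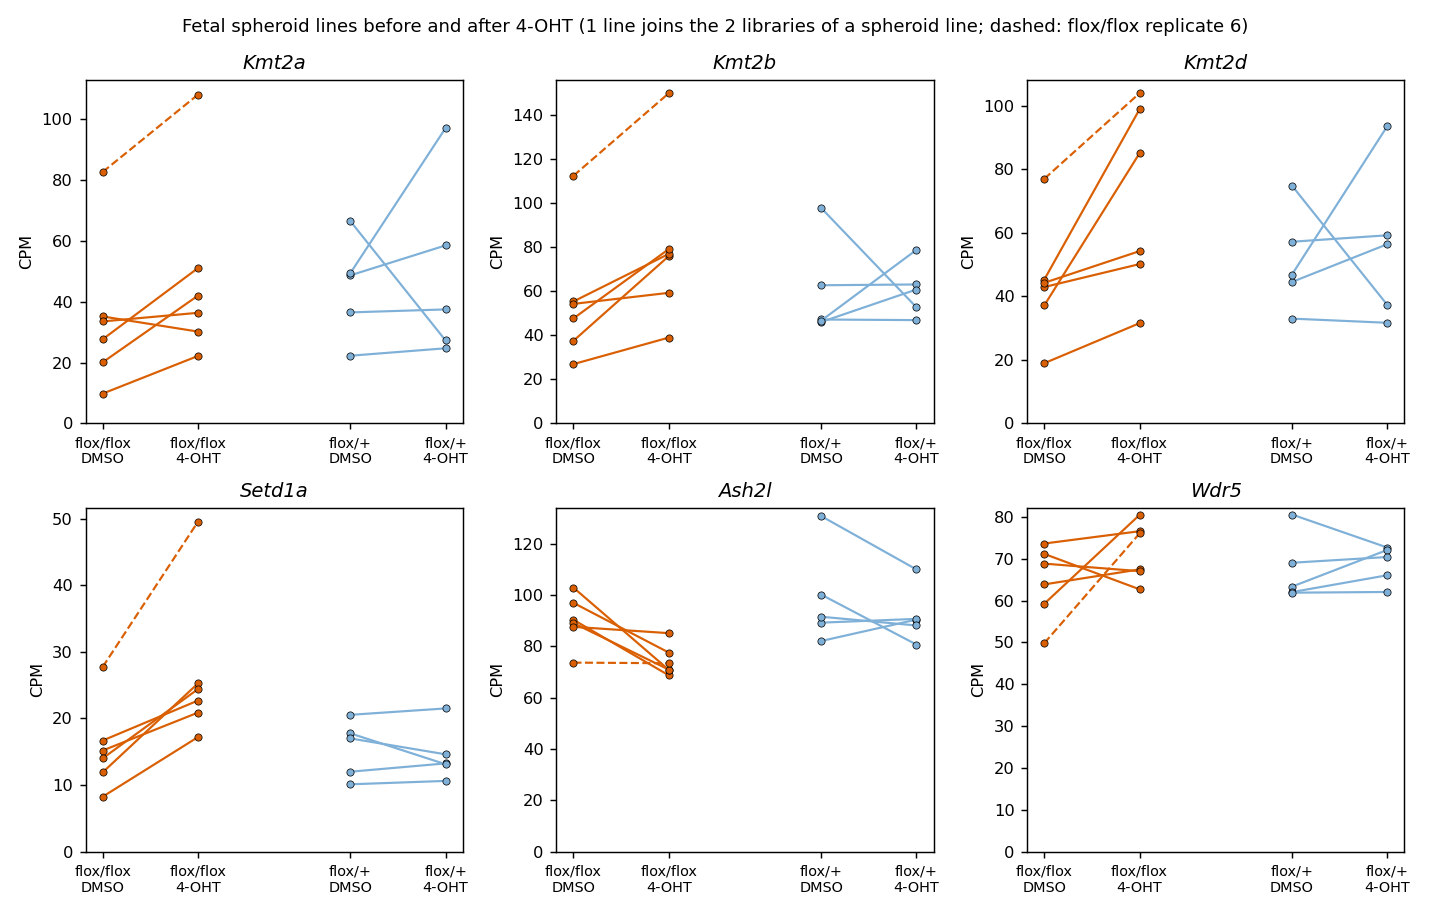
CPM (vertical axis, from 0) of 6 genes in fetal spheroid lines with DMSO and with 4-OHT, each segment joining the libraries of a line, with flox/flox lines in orange, flox/+ lines in blue and flox/flox replicate 6 dashed. Setd1a rises in all 6 flox/flox segments, from 8.26 to 27.7 CPM with DMSO to 17.2 to 49.5 CPM with 4-OHT, and the flox/+ segments stay between 10.1 and 21.5 CPM.

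The spheroid libraries also differed along gene length. Relative to the set mean, the median log2 deviation of 973 genes of at least 10000 bases, the members left out, ran from −0.42 to 0.48 across the 22 spheroid libraries, and the mean deviation of the 6 catalytic members from −1.24 to 1.08, with a Pearson correlation of 0.933 over libraries that share lines and groups. The same description gave 0.933 over 6 libraries of the first organoid set, 0.797 over 12 of the second, 0.697 over 19 Rosa26 and 0.622 over 17 Vil1 tissue libraries, and 0.528 over 16 A-485 libraries. With the length offset and no block, Setd1a in flox/flox spheroids was 0.69 (edgeR adjusted p = 0.0437) and Kmt2d 0.41 (edgeR adjusted p = 0.216).

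A-485, which blocks a different class of chromatin enzyme, was given to organoids with intact Eif4g2. It raised Kmt2b and Kmt2a and lowered Ash2l and Wdr5 at 5 and 10 µM. At 3 µM no member was called (background 19.2%), and DESeq2 called none. An unadjusted p under 0.05 was reached by 1 member, beside 32.1% of tested genes. At 5 µM, 5 of the 10 were called (background 49.6%) and at 10 µM, 4 (background 62%). The doses share their DMSO libraries. The members' median was 0.03, 0.29 and 0.20 at 3, 5 and 10 µM, beside 0.00, −0.02 and −0.05 over all tested genes and 0.14, 0.19 and 0.21 for long genes.

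Kmt2b held 49.6, 45.9, 56.4 and 55.1 CPM with DMSO, 73.3, 61.3, 80.1 and 49.1 CPM at 3 µM, 75.6, 87.1, 98.7 and 102.6 CPM at 5 µM and 70.5, 89.8, 98.2 and 85.2 CPM at 10 µM. From 5 µM on every library was above every DMSO library. The rise was 0.78 at 5 µM (SE 0.15, edgeR adjusted p = 0.000236) and 0.71 at 10 µM (SE 0.15, edgeR adjusted p = 0.000364). Kmt2a went from 55.1, 45.7, 57.9 and 65.4 CPM with DMSO to 70.3, 67.2, 88.0 and 118 CPM at 5 µM and 51.2, 78.0, 96.2 and 92.3 CPM at 10 µM. Its groups were separate at 5 µM and overlapped at 10 µM, and the rises of 0.59 (SE 0.20, edgeR adjusted p = 0.0187) and 0.48 (SE 0.20, edgeR adjusted p = 0.0398) were lost on leaving out any of 2 and 6 of the 8 libraries, with adjusted p up to 0.0908 and 0.13. With the length offset Kmt2a did not pass at either dose (0.34, adjusted p = 0.112, and 0.21, adjusted p = 0.294), while Kmt2b did (0.66 and 0.56).

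Kmt2d passed at 5 µM alone, where it read 107, 97.5, 115.2 and 91.2 CPM against 64.3, 71, 84.4 and 81.4 CPM with DMSO, without overlap. That rise of 0.42 (SE 0.16, edgeR adjusted p = 0.0416) was lost on leaving out any of 6 of the 8 libraries (adjusted p up to 0.131) and was 0.16 with the length offset. Whether 5 and 10 µM differ in Kmt2d was not tested. With the line as a block, Setd1b also passed at 5 µM (0.44, edgeR adjusted p = 0.0124), with 61.2, 74.1, 79.2 and 61.7 CPM against 46.0, 46.1, 56.9 and 49.3 CPM. Setd1a was not called at any dose, and at 5 µM read 18.3, 18.7, 19.7 and 32.1 CPM against 18.9, 19.01, 25.2 and 19.8 CPM with DMSO.

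Ash2l was lower at the higher doses, going from 106, 98.0, 97.9 and 99.1 CPM with DMSO through 98.8, 97.1, 92.3 and 86.7 CPM at 3 µM and 78.0, 84.4, 73.8 and 86.1 CPM at 5 µM to 79.2, 64.8, 69.2 and 76.2 CPM at 10 µM. All libraries at 5 and 10 µM lay below all DMSO libraries, with falls of 0.34 (SE 0.09, edgeR adjusted p = 0.00471) and 0.49 (SE 0.09, edgeR adjusted p = 0.000152). Wdr5, which was higher after Eif4g2 deletion wherever it was called, fell with A-485, from 72.8, 68.3, 75.7 and 61.1 CPM with DMSO to 53.0, 58.1, 43.0 and 48.0 CPM at 5 µM and 43.8, 54.2, 45.8 and 36.8 CPM at 10 µM. These groups did not overlap with DMSO either, with falls of 0.49 (SE 0.14, edgeR adjusted p = 0.00892) and 0.64 (SE 0.14, edgeR adjusted p = 0.000831). At 3 µM Wdr5 had been 72.4, 69.2, 64.5 and 95.2 CPM.

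Between 3 and 10 µM, 3 members were called (background 49.3%): Kmt2b higher by 0.38 (SE 0.15, edgeR adjusted p = 0.0381), Ash2l lower (−0.38, SE 0.09, edgeR adjusted p = 0.00256) and Wdr5 lower (−0.74, SE 0.14, edgeR adjusted p = 0.000351). The Kmt2b call was lost on leaving out any of 5 of the 8 libraries and with the length offset (0.32, adjusted p = 0.0719). Over the same doses the summed crypt stem and progenitor markers went from 5410 to 6440 CPM with DMSO to 775 to 1620, 279 to 355 and 38.2 to 65.5 CPM, and summed proliferation markers from 1290 to 1380 CPM to 953 to 1130, 388 to 508 and 260 to 343 CPM. Their part in the members' values was not tested. Eif4g2 itself averaged 1002 to 1168 CPM in the 4 groups.

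**Figure D4:**
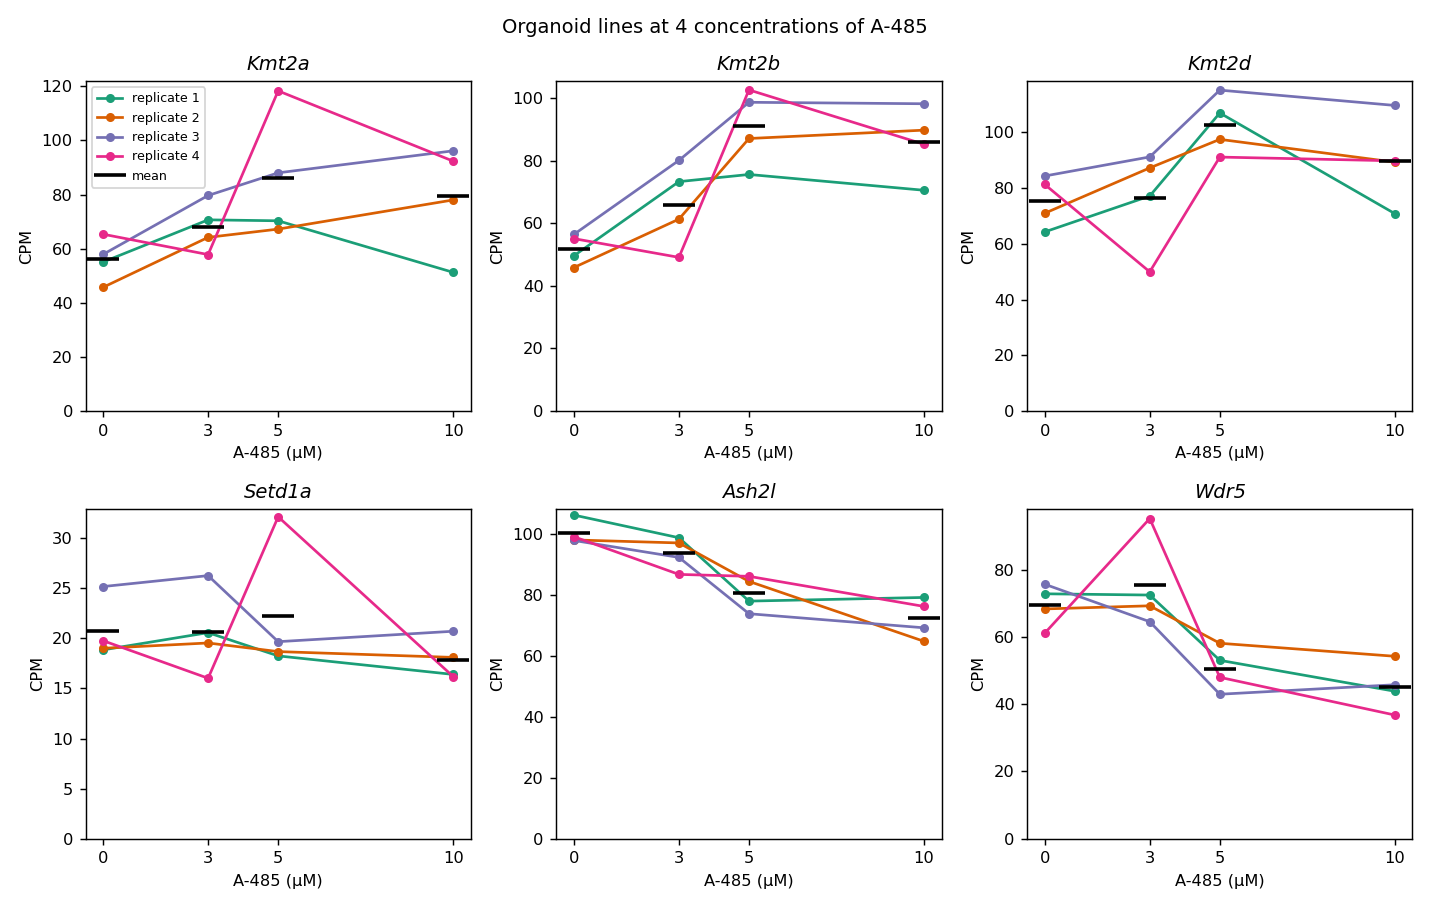
CPM (vertical axis, from 0) of 6 genes in 4 organoid lines against A-485 concentration in µM (horizontal axis, linear, 0 for DMSO), with each line's libraries joined and a black bar at the mean. Ash2l and Wdr5 at 10 µM lie at 64.8 to 79.2 and 36.8 to 54.2 CPM, below all DMSO libraries, and Kmt2b at 70.5 to 98.2 CPM lies above them.

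Crypts and villi of control mice carried different amounts of most of these transcripts, as of most tested genes. Wdr5 was the gene with the widest gap, at 53.8, 59.4, 59.3, 52.4 and 64.1 CPM in control Rosa26 crypts and 33.4, 28.3, 23.3, 27.9 and 25.9 CPM in villi of the same animals. Crypts lay above villi throughout, with a log2 difference of 1.07 (SE 0.10, edgeR adjusted p = 8.83e-07). The Vil1 controls showed the same gap, 61.1, 64.3, 55.1 and 62.5 CPM against 24.5, 32.6, 25.8 and 35.2 CPM (1.04, SE 0.13, edgeR adjusted p = 3.5e-05). In all, 7 members were called in each mouse line, against a background of 77.1% of tested genes in Rosa26 and 67.9% in Vil1 mice. The members' share was therefore near or below that of all tested genes. The members' median was 0.20 and 0.34, beside 0.09 and 0.08 over all tested genes and 0.18 and 0.25 for long genes.

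Setd1a and Kmt2a were also higher in crypts of both mouse lines. Setd1a read 25.4, 23.7, 24.9, 22.6 and 24.2 CPM in Rosa26 crypts against 11.45, 14.1, 16.5, 14.9 and 17.9 CPM in villi (0.70, SE 0.12, edgeR adjusted p = 0.000193). In Vil1 controls it read 27.0, 27.4, 25.8 and 25.3 CPM against 12.9, 15.0, 15.2 and 17.1 CPM (0.80, SE 0.11, edgeR adjusted p = 9.71e-05). No villus library of either mouse line reached a crypt library. For Kmt2a the Rosa26 levels were 68.9, 60.3, 59.9, 63.9 and 67.1 CPM in crypts and 35.5, 35.1, 50.7, 40.1 and 48.3 CPM in villi, again without overlap (0.62, SE 0.12, edgeR adjusted p = 0.000414). In Vil1 controls they were 100.9, 128.9, 107.4 and 74.9 CPM against 59.6, 74.7, 79.1 and 62.7 CPM, where 1 crypt library fell within the villus range (0.58, SE 0.16, edgeR adjusted p = 0.00939), and the call was lost with the length offset (0.32, adjusted p = 0.0588).

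Kmt2d was the member that was lower in crypts of both mouse lines. In Rosa26 controls it read 122.5, 110, 68.7, 73.1 and 74.5 CPM in crypts and 104, 138, 191, 180 and 193 CPM in villi (−0.84, SE 0.22, edgeR adjusted p = 0.00424). The overlap came from the 2 early-numbered animals, which gave −0.01 (adjusted p = 0.946) on their own, against −1.36 (adjusted p = 1.97e-05) in the 3 late-numbered animals; both values were added after seeing the data. Wdr5 gave 0.91 in the early and 1.22 in the later series, and in the early series, with 2 animals, 4 of the 7 calls were lost. In Vil1 controls Kmt2d read 109, 129, 97.1 and 95.4 CPM in crypts and 124, 154, 199 and 150 CPM in villi, with partial overlap (−0.54, SE 0.15, edgeR adjusted p = 0.00841).

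The remaining calls were smaller. Rbbp5 was higher in crypts of both mouse lines, by 0.27 (SE 0.10, edgeR adjusted p = 0.0343) in Rosa26 and 0.43 (SE 0.10, edgeR adjusted p = 0.00284) in Vil1 controls, where it read 50.1, 53.2, 50.8 and 51.9 CPM in crypts and 38.2, 32.5, 38.8 and 42.6 CPM in villi. Those Vil1 groups did not overlap. Ash2l was called higher (0.31, edgeR adjusted p = 0.0322) and Kmt2c, the second enhancer enzyme, lower (−0.29, SE 0.09, edgeR adjusted p = 0.00797) in Rosa26 crypts, the only call of Kmt2c in 19 comparisons. Kmt2c read 78.1, 61.3, 62.8, 63.9 and 63.4 CPM in those crypts and 73.8, 81.3, 81.4, 80.5 and 89.6 CPM in villi, with replicate 1 of the crypts in the villus range. Kmt2e (0.35, edgeR adjusted p = 0.00654) and Setd1b (0.33, edgeR adjusted p = 0.0194) were called higher in Vil1 crypts. With the length offset the Vil1 calls of Kmt2e (0.11, adjusted p = 0.311) and Setd1b (0.09, adjusted p = 0.491) and the Rosa26 calls of Ash2l (0.09, adjusted p = 0.514) and Rbbp5 (0.17, adjusted p = 0.209) were lost. Leaving out single libraries ended the Rosa26 calls of Ash2l in 2 and of Rbbp5 in 4 of 10 cases and the Vil1 call of Setd1b in 2 of 8. Kmt2b was not called in either mouse line. The length offset added Kmt2b in Rosa26 (−0.33, edgeR adjusted p = 0.00922) and Kmt2c in Vil1 mice (−0.47, edgeR adjusted p = 0.00124), both lower in crypts. Summed proliferation markers were 1010 to 1240 CPM in control Rosa26 crypts and 84.7 to 119 CPM in villi, and 1340 to 1610 against 113 to 150 CPM in Vil1 mice, and their part in these values was not tested.

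**Figure D5:**
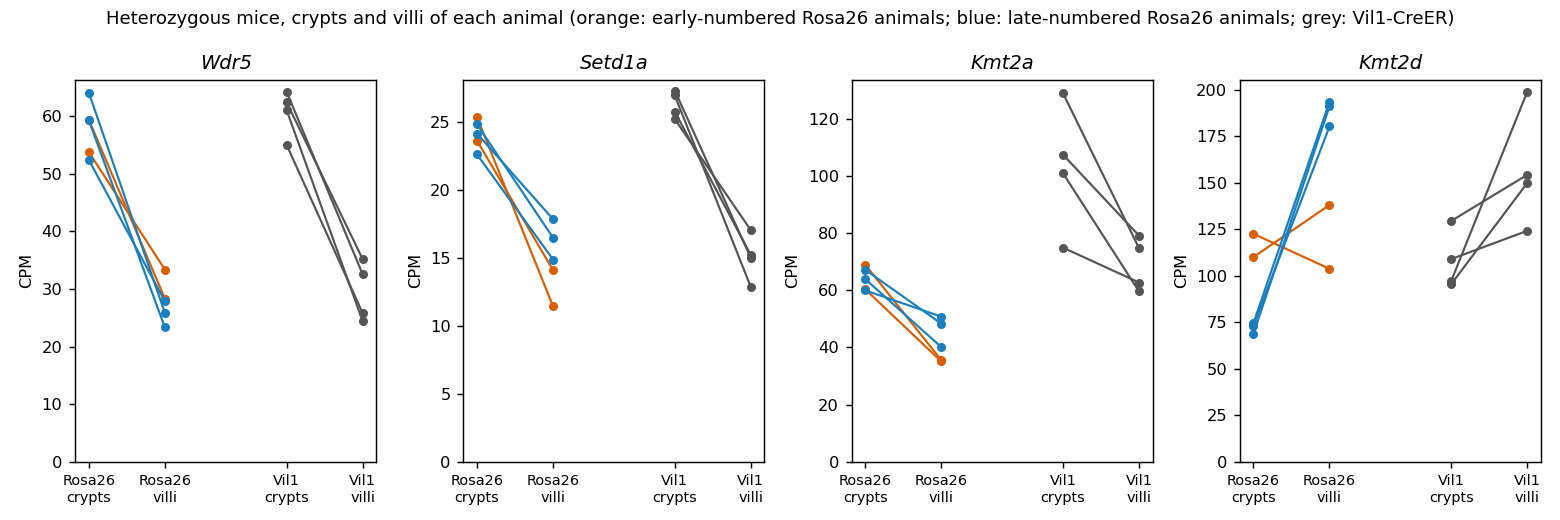
CPM (vertical axis, from 0) of Wdr5, Setd1a, Kmt2a and Kmt2d in crypts and villi of control (flox/+) mice, each segment joining the libraries of 1 animal, with early-numbered Rosa26 animals in orange, late-numbered ones in blue and Vil1 mice in grey. Wdr5 crypts, at 52.4 to 64.3 CPM, lie above all villi, at 23.3 to 35.2 CPM, and the Kmt2d segments rise toward villi except in 1 early-numbered animal.

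Whether deletion acted differently on villi and crypts was tested as an interaction. In Vil1 mice Kmt2b was the only member called (background 15.5%), with the deletion effect lower in crypts than in villi by 0.57 on the log2 scale (−0.57, SE 0.14, edgeR adjusted p = 0.0114). Kmt2b read 91.8, 95.6, 80.5 and 87.1 CPM in control and 98.9, 105.9 and 88.9 CPM in flox/flox Vil1 crypts, so the crypt groups overlapped while the villus groups did not. In Rosa26 mice none was called (background 11.5%), and DESeq2 called none. An unadjusted p under 0.05 was reached by 3 members, beside 28.4% of tested genes.

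Fetal spheroids and organoids of the same genotype, flox/+ after 4-OHT, were compared across their separate culture sets. The developmental source and the set therefore cannot be told apart. The spheroid libraries were not alike: summed crypt stem and progenitor markers ran from 141 to 5480 CPM, with a median of 149. In the organoids these sums ran from 4690 to 6560 CPM. Setd1a was lower in spheroids, at 13.3, 13.1, 10.6, 14.6 and 21.5 CPM against 30.7, 28.9, 32.7 and 32.4 CPM in organoids. No spheroid library reached an organoid library (−1.11, SE 0.19, edgeR adjusted p = 0.00123). Ash2l was lower as well, at 110, 90.5, 90.7, 80.7 and 88.2 CPM against 110.1, 107.6, 112.5 and 113 CPM, with 1 spheroid library in the organoid range (−0.30, SE 0.10, edgeR adjusted p = 0.028), a call lost on leaving out any of 8 of the 9 libraries and with the length offset (−0.25, adjusted p = 0.128), which added Kmt2c (−0.50, adjusted p = 0.037). Without it these were the only members called, against a background of 47.9%, and the members' median was −0.16 beside −0.01 over all tested genes and −0.03 for long genes.

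Subunits that mark out the individual complexes were mostly called about as often as other genes. A list of 13 partners (Dpy30, Men1, Psip1, Hcfc1, Hcfc2, Cxxc1, Wdr82, Bod1l, Kdm6a, Ncoa6, Paxip1, Pagr1a and Tasp1) had 12 tested genes, since Pagr1a passed the filter on low counts nowhere. Of these, 2 were called higher and none lower in Rosa26 crypts (background 20.2% of tested genes called in either direction), 5 and 0 in Rosa26 villi (33.2%), 3 and 1 in Vil1 crypts (29.3%) and 4 and 1 in Vil1 villi (42.5%). In organoids, 3 were called higher and 1 lower in the first set (35.4%), 4 and 2 against flox/+ (46.8%) and 7 and 1 against Eif4g2(+/+) (45.3%) in the second. The share of partners was near the background in all of these but the last, where it was above it. The partner with the largest value was Psip1, the chromatin tether of the KMT2A and menin complex, in Vil1 crypts (0.78, edgeR adjusted p = 0.00203), the first organoid set (0.72, edgeR adjusted p = 0.0029) and flox/flox spheroids (0.87, edgeR adjusted p = 0.0115). Hcfc1, the host cell factor found in SETD1 and KMT2A complexes, led in Vil1 villi (0.74, edgeR adjusted p = 0.000991) and in flox/flox against flox/+ organoids (0.53, edgeR adjusted p = 6.16e-05). In flox/flox spheroids 2 partners were called higher and none lower (background 19.1%).

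The enzymes that remove the mark were called higher in each of these comparisons at least once. Of 5 demethylases of lysine 4 (Kdm1a, Kdm1b, Kdm5a, Kdm5b and Kdm5c), 1 was called higher in Rosa26 crypts (background 20.2%), 3 in Rosa26 villi (33.2%), 2 in Vil1 crypts (29.3%), 1 in Vil1 villi (42.5%), 4 in the first organoid set (35.4%), and 5 and 3 in the second against flox/+ (46.8%) and Eif4g2(+/+) (45.3%), with none lower. Against these backgrounds the share ran from below it in Vil1 villi to all 5 genes in flox/flox against flox/+ organoids. Kdm5c was called in 13 of the 19 comparisons, higher in 11, with its largest values in Rosa26 villi (1.06, edgeR adjusted p = 0.000803) and crypts (0.82, edgeR adjusted p = 0.00101). Kdm5c is X-linked and the Rosa26 controls were all Ddx3y-positive, so sex is partly confounded with genotype there. In the late-numbered Rosa26 animals sex and genotype are fully confounded. The part of sex in these Kdm5c values was not tested. In the second organoid set Kdm5c was 0.43 against Eif4g2(+/+) (edgeR adjusted p = 5.73e-05). Psip1 was called in 13 comparisons, higher in 9, and Hcfc1 in 12, higher in 9.

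With A-485 more partners were called lower than higher. At 3 µM none was called higher and 1 lower (background 19.2%), at 5 µM 1 and 5 (49.6%), and at 10 µM 2 and 6 (62%). Their share was thus at or below the background at 3 and 5 µM and slightly above it at 10 µM. Over all tested genes, 10.8% were called higher and 8.42% lower at 3 µM, 24.4% and 25.1% at 5 µM, and 29.4% and 32.6% at 10 µM. The demethylases had 1, 3 and 4 of 5 called higher at these doses and none lower. The largest falls were those of Wdr82, the SETD1 subunit that reads the polymerase tail, at 5 µM (−0.78, edgeR adjusted p = 1.85e-05) and of Paxip1, a KMT2C and KMT2D subunit, at 10 µM (−1.08, edgeR adjusted p = 6.18e-05). In crypts against villi, 9 partners were called higher and 1 lower in Rosa26 (background 77.1%) and 10 and 0 in Vil1 controls (67.9%), led by Psip1 (2.38, edgeR adjusted p = 1.71e-07) and Tasp1, the protease that cleaves KMT2A (1.93, edgeR adjusted p = 7.63e-05). Spheroids had 7 partners called lower than organoids and none higher (background 47.9%), led by Paxip1 (−1.68, edgeR adjusted p = 0.000116). Over all tested genes, 25.1% were called higher and 22.8% lower in spheroids. In crypts these shares were 40.6% and 36.4% in Rosa26 and 35.2% and 32.7% in Vil1 controls.

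Within groups the enzyme genes varied together. Over the 92 libraries, after removing group means, the 15 pairs of catalytic members had a median Pearson correlation of 0.71 (0.583 to 0.82), while all 45 pairs of members had a median of 0.287, from −0.38 for Kmt2c with Wdr5 to 0.906 for Kmt2a with Kmt2e. The points share library depth and the length trend described above, and libraries of the same line or animal enter more than once. The spheroids spread most: around set means, the catalytic members' mean ran from −1.24 to 1.08 there and from −0.43 to 0.47 with A-485. How far the spheroids set the pooled correlation was not tested. Over the 21 group means, the genes most like Kmt2d among 9181 were Mif4gd (r = 0.941), Parp10 (0.939) and Zfp592 (0.935), and those most like Wdr5 were Tfdp1 (0.985), Kpnb1 (0.984) and Set (0.984).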

How the data were processed

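Libraries were poly(A)-selected and directional (dUTP), per the labels' protocols. The authors deposited raw read counts per gene, as whole numbers without normalization, in 4 tables that were used as deposited with all 92 libraries. HISAT2 2.0.5 and the build GRCm38 (mm10) are named in the submitters' processing notes; the counting program, its strand setting and the annotation are not given in the sources used here. Of the 54532 gene identifiers, 54409 were in GENCODE vM21, 98.8% with the same start.

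Each of 19 comparisons and 3 interactions was fitted across all genes in edgeR 4.0.16 (R 4.3.3) with filterByExpr, TMM scaling, robust quasi-likelihood F-tests, two-sided, and Benjamini-Hochberg adjustment. Tissue comparisons, the first organoid set and spheroids against organoids used their own groups, and the second organoid set, the spheroids and A-485 were each fitted with all their groups. CPM are scaled by TMM over all 92 libraries, so ratios of printed CPM can differ from the fitted fold changes. Alternatives were DESeq2 1.42.0 (its size factors in edgeR and its Wald test), no filter beyond 1 read, an offset for transcript length, mitochondrial genes left out, a Y-linked covariate, a replicate block and leaving out each library. DMSO and 4-OHT libraries of the first organoid set and of the spheroids, the A-485 doses, and control crypts and villi are paired by line or animal in the library names (correlation of paired deviations 0.318 to 0.501, 0.327 to 0.838, 0.046 to 0.269 and −0.00247 to 0.296). The fits were checked on simulated counts.

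The 10 genes are described in every comparison, with libraries' values for called genes. From the lists of partners and demethylases, genes called in most comparisons and the largest called change of a comparison could be named, and the text gives a selection of these made after their values were seen. The members and lists were chosen with earlier results of these data known.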

Additional observations from a re-analysis of the deposited data

Results flagged for a closer look

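In 13 of 180 groups of 4 to 10 libraries, a gene's highest or lowest library stood far from the rest of its group by Dixon's criterion at the 95% level; chance flags about 1 in 20 groups. The flox/flox spheroid line of replicate 6 accounted for 6 of them. With DMSO it held 82.68 CPM of Kmt2a (other lines 9.784 to 35.16), 112.3 CPM of Kmt2b (26.88 to 55.29) and 70.12 CPM of Kmt2c (23.14 to 35.67). With 4-OHT it held 108.1 CPM of Kmt2a (22.16 to 51.06), 149.7 CPM of Kmt2b (38.9 to 79.02) and 49.52 CPM of Setd1a (17.2 to 25.26).

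Kmt2c stood high at 78.14 CPM in control Rosa26 crypt replicate 1 (others 61.27 to 63.89). Ash2l stood high at 77.52 CPM in flox/flox Rosa26 villus replicate 5 (25.15 to 33.71). Setd1a stood low at 31.53 CPM in replicate 3 of the flox/flox organoids of the second set (38.1 to 39.34). In the A-485 experiment Setd1a stood high at 25.17 CPM in DMSO replicate 3 (18.85 to 19.77) and at 32.13 CPM in replicate 4 at 5 µM (18.25 to 19.67), Ash2l stood high at 106.2 CPM in DMSO replicate 1 (97.86 to 99.1), and Rbbp5 stood low at 35.05 CPM in replicate 4 at 10 µM (42.45 to 43.04).

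The effect of deletion on Kmt2b differed between crypts and villi of the Vil1 mice by −0.57 on the log2 scale (crypts minus villi, edgeR interaction test, adjusted p = 0.0114).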

How the results depend on the processing

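Of 54 calls of a member in a comparison, 29 were kept under every alternative run. Outside single-library removals, 42 of 355 values of called members no longer passed and none reversed; on leaving out single libraries, 70 of 461 no longer passed and none reversed. The length offset ended 15 calls, no filter 7, DESeq2 size factors 3, the block 3, and DESeq2's test and leaving out mitochondrial genes 1 each. Every member passed the filter in every comparison, and Setd1a, the member with the fewest reads, had at least 157 per library. For the changes below, the cause was not tested unless the alternative used fewer libraries.

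Counts of called members in this section stand without the share of all tested genes called in the same fit. They describe how stable the calls were, and not how the members compare with other genes. The counts moved as follows. Without a filter, Rosa26 crypts had 0 instead of 1, Rosa26 villi 1 instead of 3, flox/+ against Eif4g2(+/+) organoids 1 instead of 0, and spheroids against organoids 1 instead of 2, which was also 1 without mitochondrial genes. DESeq2's test gave 3 in Vil1 crypts (1), 1 in flox/+ against Eif4g2(+/+) organoids (0), 1 in flox/flox spheroids (0) and 2 between 4-OHT spheroids (0). In Vil1 crypts, DESeq2 size factors, the length offset and leaving out mitochondrial genes each gave 2. The length offset gave 3 in the first organoid set (5), 3 at 5 µM A-485 (5), 1 in flox/flox spheroids and 1 between 4-OHT spheroids. There Kmt2c and Setd1b in flox/flox spheroids, neither called, turned to −0.12 and −0.05.

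A Y-linked covariate left 0 in Rosa26 villi. Chosen after seeing the data, the series covariate gave 2 in Rosa26 crypts, the late-numbered animals alone 1 in Rosa26 villi (Kmt2c, with Kmt2b, Kmt2e and Setd1b lost) and 1 in Rosa26 crypts (Kmt2d, with Ash2l lost), and the early-numbered animals alone 4 instead of 7 between crypts and villi. Leaving the spheroid line of replicate 6 out gave 1 without and 5 with the block in flox/flox spheroids, 1 in the spheroid interaction with the block and 0 in the other spheroid comparisons it enters.

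With the replicate block, 6 members were called in flox/flox spheroids and 1 in the spheroid interaction; in the other paired comparisons it added Setd1b at 5 µM A-485 and changed no other call. Where libraries share only a number, the block gave 2 in Rosa26 crypts, 5 in Rosa26 villi, 0 in Vil1 crypts and 4 between spheroids and organoids.

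On leaving out 1 library at a time, counts ran from 0 to 2 in Rosa26 crypts, 1 to 4 in Rosa26 villi, 1 to 2 in Vil1 crypts and 3 to 5 in Vil1 villi. In organoids they ran from 3 to 5 after 4-OHT, 4 to 6 against either control and 0 to 0 for flox/+ against Eif4g2(+/+). Spheroids gave 0 to 3 for flox/flox, 0 to 1 between genotypes after 4-OHT and 0 otherwise. A-485 gave 0 to 1 at 3 µM, 3 to 5 at 5 µM, 3 to 4 at 10 µM and 2 to 3 between 10 and 3 µM. Crypts against villi gave 5 to 8 in Rosa26 and 6 to 8 in Vil1 mice, spheroids against organoids 1 to 3, and the Vil1 interaction 1 to 2. Kmt2c in flox/flox spheroids ran from −0.03 to 0.42.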
